A study of Mus musculus with 6 samples.

Results

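Glycolysis and the response to low oxygen were described here through 31 genes, in whole uteri of female mice on postnatal day 21. The genes were chosen by function, as the enzymes of glycolysis, their transporters and regulators, the oxygen-sensing machinery and 3 genes induced in hypoxia. All 31 were found by symbol among the 20637 genes of the deposited tables, and all 31 were among the 12640 genes tested. The study sequenced poly(A) RNA from 3 Nat10 f/f libraries, whose Nat10 alleles are floxed, and from 3 Nat10 d/d libraries, in which Nat10 was deleted. Nat10 encodes an acetyltransferase that modifies cytidines in RNA. The labels name no Cre driver, deleted exon, strain, litter or batch, and do not say whether each library came from a single animal, so the spread between libraries may be partly technical. Values are FPKM, that is, sequenced fragments scaled by transcript length and by the number of mapped fragments in the library.

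Glycolysis splits glucose into pyruvate in the cytosol. Its early steps, from hexokinase to triosephosphate isomerase, spend ATP and are called preparatory, and its later steps, from glyceraldehyde-phosphate dehydrogenase to pyruvate kinase, return ATP and are called payoff steps. Lactate dehydrogenase converts pyruvate to lactate, which monocarboxylate transporters move across the membrane. When oxygen is low, prolyl hydroxylases of the Egln family no longer mark the alpha subunits encoded by Hif1a and Epas1 for destruction, and the stabilised factors bind DNA at sites with the core ACGTG or GCGTG and induce many glycolytic genes.

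The ACGTG core was searched on both strands (as ACGTG or CACGT, which overlap in CACGTG) in the 250 bases before each RefSeq gene start on GRCm38. Of the members, 29 had 42 promoters in the table, and 20 of these (47.6%) held the core, against 21% of the promoters of all tested genes and 16.6% of all promoters. By gene, 17 of the 29 members and 2479 of 10039 tested genes had a promoter with the core. Some promoters of the same gene overlap, as for Aldoa, so a site can count more than once. The members were chosen as glycolysis and hypoxia genes, so their higher share is not an independent result. The median GC content was 61% in the members' promoters and 59.6% in those of all tested genes. Epas1 and Slc2a3 had no promoter in the table. The promoters of Ldha (1 of 2 in the table; chr7:46845554-46845803, plus strand), Pgk1 (chrX:106186850-106187099, plus strand), Bnip3 (chr7:138909507-138909756, minus strand) and Ankrd37 (chr8:45999851-46000100, minus strand) are shown, 5′ to 3′ on the gene's strand. These genes are chosen because Ldha and Pgk1 were high, and Bnip3 low, in the same d/d library, and Ankrd37 was highest in d/d replicate 3. The promoters shown all carry the core, which is in capitals.

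Ldha: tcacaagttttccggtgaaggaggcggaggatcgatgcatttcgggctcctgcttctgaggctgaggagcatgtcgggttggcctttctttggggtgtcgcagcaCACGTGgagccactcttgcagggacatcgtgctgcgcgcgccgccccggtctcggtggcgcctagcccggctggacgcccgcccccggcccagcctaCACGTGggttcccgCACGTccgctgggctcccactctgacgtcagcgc
Pgk1: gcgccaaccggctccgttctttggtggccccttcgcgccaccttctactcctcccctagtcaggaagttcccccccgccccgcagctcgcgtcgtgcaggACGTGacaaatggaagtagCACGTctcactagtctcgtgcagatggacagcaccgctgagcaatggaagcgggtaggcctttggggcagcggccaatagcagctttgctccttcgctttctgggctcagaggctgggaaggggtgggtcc
Bnip3: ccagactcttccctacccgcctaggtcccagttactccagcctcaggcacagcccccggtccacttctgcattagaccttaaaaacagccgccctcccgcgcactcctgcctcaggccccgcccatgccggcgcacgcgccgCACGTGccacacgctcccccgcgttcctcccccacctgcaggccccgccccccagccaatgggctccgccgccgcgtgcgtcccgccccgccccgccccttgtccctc
Ankrd37: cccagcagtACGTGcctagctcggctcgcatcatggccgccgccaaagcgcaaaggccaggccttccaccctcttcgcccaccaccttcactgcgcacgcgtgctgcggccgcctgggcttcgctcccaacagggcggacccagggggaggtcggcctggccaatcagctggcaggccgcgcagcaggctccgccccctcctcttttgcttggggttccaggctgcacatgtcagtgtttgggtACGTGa

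The core lay at 3 sites before this Ldha start, at 2 before Pgk1, at 1 before Bnip3 and at 2 before Ankrd37. The other Ldha promoter in the table (chr7:46846832-46847081, plus strand) held 0 sites. Not all members with such values carried the core. Of the others highest in d/d replicate 2, Pgam1, Pkm and Slc16a3 had a promoter with the core. Those of Pfkl, Aldoc, Tpi1, Gapdh and Eno1 held 0 sites. Of the others lowest in that library, Pfkfb3 and Car9 had the core, Pdk1 had 0 sites, and Slc2a3 had no promoter in the table. These matches are descriptions of the sequence and not measured binding.

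Nat10 itself was at 13.2, 16.4 and 9.95 FPKM in f/f replicates 1, 2 and 3 and at 5.57, 5.23 and 5.53 in the d/d replicates, with no overlap. The d/d mean was 41.4% of the control mean, and the exact two-sided permutation test gave p = 0.1, the smallest that 3 libraries against 3 allow. The limma adjusted p over all genes was 0.669. Uterine markers were present in every library, for example Hoxa10 at 116 to 151 and Esr1 at 83.9 to 134 FPKM. The deepest library had an estimated 1.26 times the depth of the shallowest. Nat10-deleted replicate 2 stood apart from the rest: the 8 proliferation markers summed to 181 FPKM there, against 75.1, 18.8 and 47.3 in controls and 17.8 and 9.06 in d/d replicates 1 and 3. Results are therefore also given without it. Control replicate 1 had the highest sums of red blood cell markers (5581 FPKM, against 709 to 2629 elsewhere) and of fat markers (16.3 FPKM, against 0.244 to 4.19).

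No member passed an adjusted p of 0.05 in limma (0 of 31), as was the case for 0% of all tested genes. At an unadjusted p under 0.05 there was 1 member, Slc2a3, or 3.23% of the members against 4.98% of all tested genes. Groups did not overlap for 4 members, Slc2a3 and Hk1 lower and Ldhb and Eno2 higher in d/d uteri, which is 12.9% of the members against 10.7% of all tested genes. By direction, 6.45% of the members were higher and 6.45% lower without overlap, against 6.12% and 4.6% of all tested genes. The median log2 change over the members was 0.02, beside 0.03 over all tested genes. The counts and the median were thus near those of all genes.

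**Figure D1:**
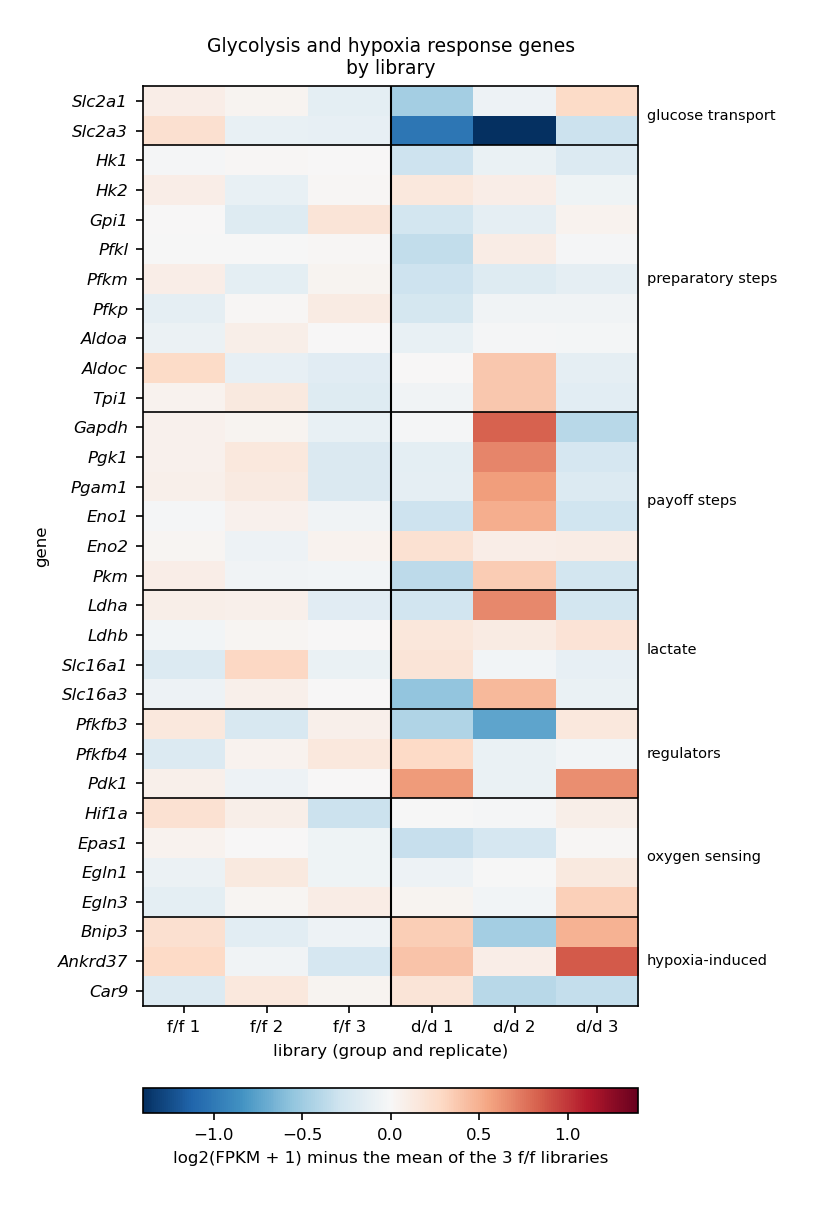
Each row is a gene and each column a library. Colour shows log2(FPKM + 1) minus the mean of the 3 f/f libraries, on a scale from -1.4 (blue) to 1.4 (red). Ldha and the payoff genes other than Eno2 are red in d/d replicate 2 and pale or blue in d/d replicates 1 and 3, while Slc2a3 is blue in all 3 d/d libraries.

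The glucose transporters came first in the pathway and held the member with the largest change. Slc2a3 (ENSMUSG00000003153, chr6:122727809-122801640, minus strand, GRCm38) encodes a facilitative transporter with high affinity for glucose. Its values were 20.5, 16.1 and 16 FPKM in f/f replicates 1, 2 and 3 and 8.13, 6.03 and 14.0 in the d/d replicates. Every d/d library lay below every control, with d/d replicate 3 the closest to them. The means were 17.6 ± 2.56 and 9.39 ± 4.13 (SD, n = 3), so that d/d uteri had 53.5% of the control level. The log2 difference was -0.90 (SE 0.27; limma adjusted p 0.922), and -0.66 without d/d replicate 2. With array quality weights, which let each library count according to its fit, the adjusted p from limma was 0.0386, the lowest of a range that reached 1 across settings, in a fit that called 2 members (6.45%) and 2.5% of all tested genes.

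Slc2a1, the widespread basal glucose transporter, had values of 16.8, 16.1 and 14.1 FPKM in controls and 10.9, 14.8 and 19.0 in d/d replicates 1, 2 and 3. The d/d libraries lay on both sides of the control range. Of the summed FPKM of both transporters, Slc2a3 made up 55%, 50.1% and 53.2% in controls and 42.7%, 28.9% and 42.4% in d/d uteri. Its share was thus below the control range in each d/d library, whereas Slc2a1 itself overlapped between groups. In bulk tissue, fewer cells of a type and less RNA per cell cannot be told apart. Leukocyte markers, which mark cells that can also carry Slc2a3, summed to 99.9, 135 and 149 FPKM in controls and 135, 96.9 and 135 in d/d uteri, so those groups overlapped. The 5 endothelial markers summed to 218, 195 and 224 FPKM in controls and 162, 181 and 194 in d/d uteri. Each d/d sum was below each control sum, but d/d replicate 3 nearly equalled control replicate 2. Of these markers, Kdr and Tek were lower without overlap, while Pecam1, Cdh5 and Tie1 overlapped between groups. The 6 red blood cell markers, whose cells can also carry glucose transporters, summed to 5581, 2629 and 852 FPKM in controls and 709, 1723 and 1111 in d/d uteri, with overlap. The log2 change of Slc2a3 was -0.79 without control replicate 1, where its value and the red blood cell and fat markers were highest. The part of these cells in the level of Slc2a3 was not tested.

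**Figure D2:**
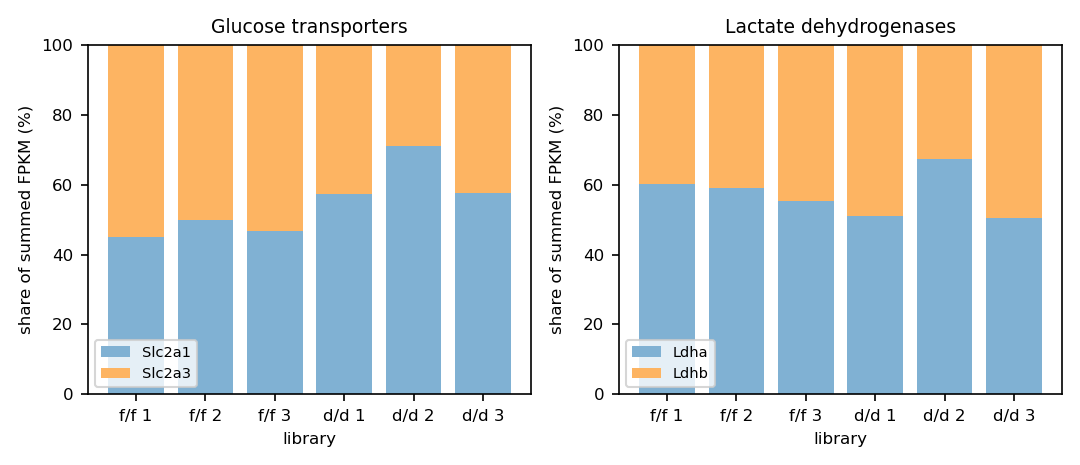
Bars show, for each library, the percent of summed FPKM that came from Slc2a1 and Slc2a3 (left) and from Ldha and Ldhb (right). Slc2a3 made up 50.1% to 55% in controls and 28.9% to 42.7% in d/d libraries, while the share of Ldha in d/d replicate 2 (67.3%) exceeded those of all other libraries.

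The 9 preparatory genes differed little between groups, with a median log2 change of -0.08 (3 above and 6 below 0). Hk1 (ENSMUSG00000037012, chr10:62268855-62379908, minus strand) encodes the hexokinase that traps glucose in most tissues. It was at 46.2, 47.4 and 46.9 FPKM in controls and at 38.2, 43.9 and 40.8 in d/d replicates 1, 2 and 3. All d/d libraries lay below the narrow control range. The means were 46.8 ± 0.636 and 41 ± 2.86 (SD, n = 3), a log2 change of -0.19 (SE 0.10; limma adjusted p 0.922). Hk1 was lowest in d/d replicate 1, as were 12 of the 31 members (38.7%), against 18.3% of all tested genes. Hk2, the inducible hexokinase, was low at 1.65 to 2.17 FPKM over all 6 libraries and made up 3.37% to 5.38% of the summed hexokinase FPKM.

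Phosphofructokinase commits sugar to glycolysis, and its 3 subunit genes were all expressed. Pfkm was at 27.5, 23.3 and 26.5 FPKM in controls and at 20.9, 22.6 and 23.5 in d/d uteri, a log2 change of -0.20 (SE 0.11; limma adjusted p 0.922). Only d/d replicate 3 reached the control range, at its lower end. Pfkm is the muscle subunit, and of the 8 skeletal muscle markers Myh1, Myh2 and Myh4 were listed at 0 in all libraries, while Acta1 lay between 35.3 and 54.0 FPKM and Tnnt3 between 2.80 and 5.85. These markers summed to 60.1, 51.0 and 42.3 FPKM in controls and 41.9, 51.3 and 46.3 in d/d uteri, and their part in the level of Pfkm was not tested. Pfkl, the liver-type subunit, had nearly the same value in each control (27.9, 27.9 and 28.2 FPKM) but 21.8, 30.3 and 27.8 in d/d replicates 1, 2 and 3. Pfkp, the platelet-type subunit, lay between 11.2 and 14.7 FPKM throughout. The subunits' shares of the summed FPKM overlapped between groups, with Pfkl at 40.4% to 46%, Pfkm at 34.3% to 40.6% and Pfkp at 18.1% to 21.1%.

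Gpi1, the isomerase after hexokinase, ranged from 95.2 to 129 FPKM with overlapping groups. Aldolase, which splits the sugar, came almost wholly from Aldoa, at 282 ± 16.3 FPKM in controls and 272 ± 9.23 in d/d uteri (SD, n = 3). Aldoc reached only 2.07 to 3.45 FPKM. Tpi1, which interconverts the triose products, was at 207, 219 and 175 FPKM in controls and at 192, 259 and 179 in d/d replicates 1, 2 and 3. Only d/d replicate 2 lay above the controls.

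Of the roles, the 6 payoff genes had the widest spread among d/d libraries relative to controls. Set against the control mean, their median was 0.06, 0.05 and -0.08 log2 units in controls and -0.13, 0.55 and -0.25 in d/d replicates 1, 2 and 3. In 5 of the 6, Eno2 excepted, d/d replicate 2 was the highest of all libraries, which was the case for 10 of the 31 members (32.3%) against 30.1% of all tested genes. The standard deviation of log2 values among d/d libraries was a median of 3.84 times that among controls for the payoff genes, 1.83 times for all members and 1.73 times for all tested genes. It was larger in d/d uteri for 24 of the 31 members (77.4%), against 73.9% of all tested genes.

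Pgk1, which makes the first ATP of the pathway, was at 79.7, 84.9 and 66.4 FPKM in controls and at 69.6, 123 and 65.1 in d/d replicates 1, 2 and 3. Pgam1, the mutase that follows, was at 72.2, 75.0 and 59.2 FPKM in controls and at 62.9, 103 and 59.7 in d/d uteri. For both genes d/d replicate 2 alone lay above the controls, and replicates 1 and 3 lay at or near the lower end of the control range. Eno1, the widespread enolase, had 188, 199 and 183 FPKM in controls and 155, 272 and 156 in the d/d replicates. Pkm, pyruvate kinase of muscle and most growing tissues, had 250, 227 and 229 FPKM in controls and 183, 300.0 and 196 in the d/d replicates. Of Eno1 and Pkm, d/d replicates 1 and 3 were below every control and replicate 2 above every control. The mean changes of these genes were small, at -0.02 (SE 0.22) for Eno1 and -0.09 (SE 0.19) for Pkm on the log2 scale.

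Eno2, the neuronal enolase, did not follow that order. It was at 6.34, 5.85 and 6.43 FPKM in controls and at 7.34, 6.70 and 6.77 in d/d uteri. The groups did not overlap, with means of 6.21 ± 0.313 and 6.94 ± 0.353 (SD, n = 3) and a log2 change of 0.14 (SE 0.11; limma adjusted p 0.926).

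Gapdh, the dehydrogenase that opens the payoff phase, was listed at 10.3, 10.1 and 9.06 FPKM in controls and at 9.71, 18.1 and 7.24 in d/d replicates 1, 2 and 3. Its control mean of 9.81 ± 0.651 (SD, n = 3) was far under those of its neighbours in the pathway, Tpi1 (200.2 ± 22.5) and Pgk1 (77.0 ± 9.5). The longest Gapdh transcript matched transcripts of 78 other genes, 75 of them annotated as pseudogenes, over at least 200 bases at 95% identity or more. Next was Bnip3 with 5 such genes, followed by Pgk1 and Ldha with 4 each. Such copies were found for 11 of the 31 members, and the authors' quantification could have split their reads, so the level of Gapdh and, to a lesser degree, of the others is uncertain.

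**Figure D3:**
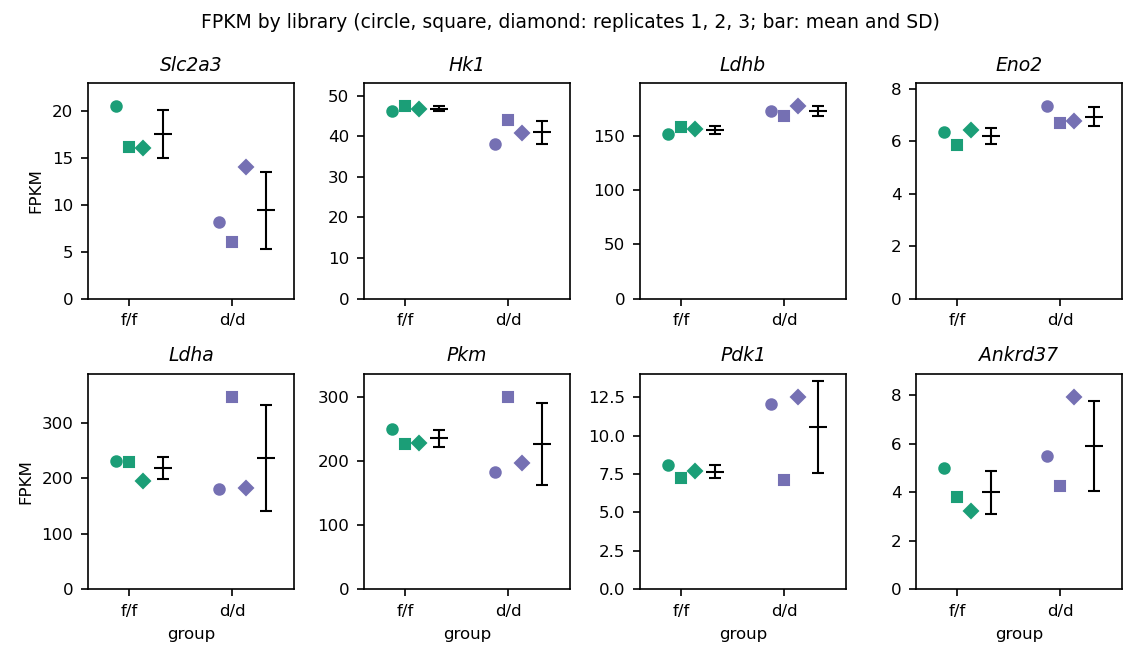
Points are FPKM values of single libraries for 8 members, with circles, squares and diamonds for replicates 1, 2 and 3, and bars give the mean and SD of each group. The groups do not overlap for Slc2a3, Hk1, Ldhb and Eno2, while d/d replicate 2 (square) stands far above the others for Ldha (347) and Pkm (300.0) and just below the controls for Pdk1 (7.11).

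Neither lactate dehydrogenase gene passed the test. Ldha (ENSMUSG00000063229, chr7:46841475-46855627, plus strand) encodes the subunit that favours making lactate. It was at 230.0, 229 and 195 FPKM in controls and at 180.0, 347 and 181 in d/d replicates 1, 2 and 3. As with Eno1 and Pkm, replicates 1 and 3 were below every control and replicate 2 above every control. Its log2 difference was 0.05 (SE 0.25; limma adjusted p 0.992) over all libraries and -0.26 without d/d replicate 2. Ldhb (ENSMUSG00000030246, chr6:142490249-142507957, minus strand) encodes the subunit that favours using lactate. It was at 151, 158 and 156 FPKM in controls and at 173, 168 and 177 in d/d uteri. Every d/d library exceeded every control by a small margin, with means of 155 ± 3.5 and 173 ± 4.41 (SD, n = 3). The log2 change of Ldhb was 0.15 (SE 0.10; limma adjusted p 0.922). Ldha thus made up 60.3%, 59.1% and 55.5% of the summed FPKM of both genes in controls and 51%, 67.3% and 50.6% in d/d replicates 1, 2 and 3, with overlapping groups.

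Slc16a1, which carries lactate and pyruvate in most tissues, was at 7.24 to 10.5 FPKM with full overlap between groups. Slc16a3, the exporter of highly glycolytic cells, was low, at 2.09, 2.42 and 2.26 FPKM in controls and at 1.21, 3.44 and 2.05 in d/d replicates 1, 2 and 3. It showed the same order among d/d libraries as Ldha. In all, 5 members (Pfkl, Eno1, Pkm, Ldha and Slc16a3) had d/d replicates 1 and 3 below and replicate 2 above every control, which is 16.1% of the members against 6.77% of all tested genes. This grouping was made after the values were seen.

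Proliferation markers were also highest in d/d replicate 2. Set against the control mean, the proliferation markers had a median of -1.01, 1.83 and -1.56 log2 units in d/d replicates 1, 2 and 3, and all 8 were highest in replicate 2. In controls, the same median was 0.76, -0.87 and 0.20, while the median of the payoff genes was 0.058, 0.052 and -0.076. The 6 stromal markers summed to 4016, 3466 and 4008 FPKM in controls and to 2881, 3982 and 2802 in d/d replicates 1, 2 and 3. Of these, 4 were highest in d/d replicate 2, whereas Pdgfra and Dcn were lowest there of all libraries (39.5 and 646 FPKM). The part of these cells or states in the levels of the glycolytic genes was not tested.

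**Figure D4:**
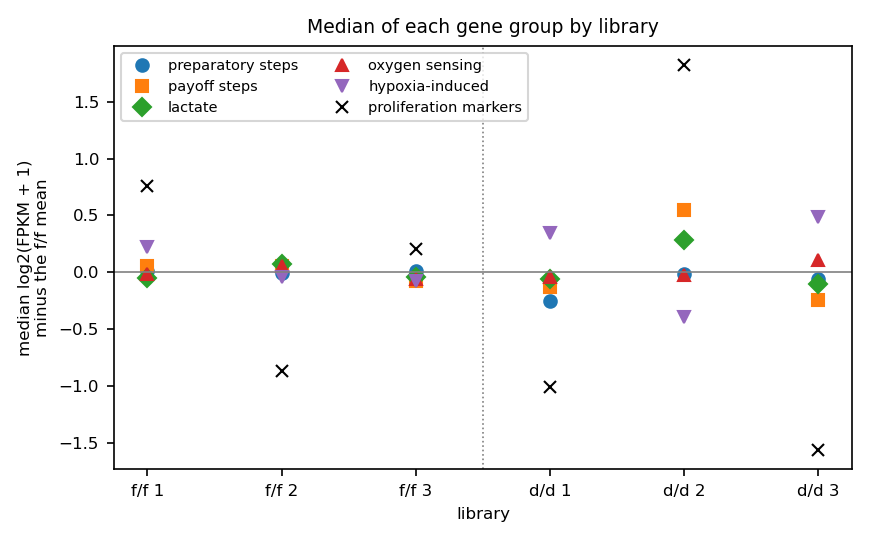
Points show, for each library, the median over a gene group of log2(FPKM + 1) minus the f/f mean. Payoff genes (squares) reach 0.55 in d/d replicate 2 and lie at -0.13 and -0.25 in d/d replicates 1 and 3, hypoxia-induced genes (down triangles) lie at -0.39 in d/d replicate 2 and at 0.34 and 0.49 in d/d replicates 1 and 3 (in replicate 2 the median of the 3 is the value of Car9, which was near the detection filter, and Ankrd37 was among the controls, while in replicate 3 Car9 was below them), and proliferation markers (crosses) span -1.56 to 1.83.

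Of the regulators, Pdk1 (ENSMUSG00000006494, chr2:71873224-71903858, plus strand) encodes a kinase that inhibits pyruvate dehydrogenase and so keeps pyruvate out of the mitochondrial cycle. It was at 8.07, 7.22 and 7.67 FPKM in controls and at 12.1, 7.11 and 12.5 in d/d replicates 1, 2 and 3. Replicates 1 and 3 stood well above the controls, and replicate 2 just below them. The means were 7.65 ± 0.426 and 10.6 ± 3.01 (SD, n = 3), a log2 change of 0.38 (SE 0.20; limma adjusted p 0.922). The change was 0.25 without d/d replicate 3. Without d/d replicate 2 it was 0.62 (SE 0.11; limma adjusted p 0.133), and with array quality weights it was 0.55 with a limma adjusted p of 0.047, the lowest of a range that reached 1.

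Pfkfb3 makes the sugar phosphate that activates phosphofructokinase. It was at 23.8, 18.2 and 22.4 FPKM in controls and at 15.7, 12.4 and 23.7 in d/d replicates 1, 2 and 3, so that replicates 1 and 2 were below the controls and replicate 3 among them. Its log2 difference was -0.34 (SE 0.23; limma adjusted p 0.924), -0.14 without d/d replicate 2 and -0.58 without d/d replicate 3. Pfkfb4, a related enzyme, stayed between 3.78 and 5.62 FPKM.

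The oxygen-sensing genes differed little on average. Hif1a, an alpha subunit regulated chiefly at the protein level, was at 65.2, 59.4 and 45.1 FPKM in controls and at 55.7, 55.3 and 59.3 in d/d uteri. The d/d libraries lay inside the control range. Epas1, the alpha subunit prominent in endothelium, was at 44.3, 43.1 and 41.0 FPKM in controls and at 33.9, 36.3 and 43.2 in d/d replicates 1, 2 and 3. Replicates 1 and 2 were below the controls and replicate 3 within them, with a log2 change of -0.18 (SE 0.12; limma adjusted p 0.924), or -0.11 without d/d replicate 1 and -0.28 without d/d replicate 3. The summed endothelial markers, given beside Slc2a3, were lower in each d/d library than in each control, though barely so in d/d replicate 3. Pecam1, Cdh5 and Tie1 among them overlapped between groups. The part of endothelial cells in the Epas1 values was not tested. Egln1, the main oxygen-dependent prolyl hydroxylase, ranged from 41.6 to 48.5 FPKM, and Egln3, a hypoxia-induced relative, from 4.19 to 6.18, both with overlap.

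None of the 3 hypoxia-induced genes passed the test. Bnip3, a mitochondrial protein that promotes mitophagy, was at 28.0, 21.4 and 22.5 FPKM in controls and at 30.5, 16.9 and 33.7 in d/d replicates 1, 2 and 3. Replicates 1 and 3 were above and replicate 2 below every control, the reverse of Ldha. Bnip3 and Pdk1 were the members with this order, 6.45% of the members against 6.75% of all tested genes. Ankrd37, an ankyrin repeat gene, was at 4.98, 3.79 and 3.21 FPKM in controls and at 5.51, 4.27 and 7.95 in d/d uteri. Replicates 1 and 3 were above the controls and replicate 2 among them, with a log2 change of 0.45 (SE 0.22; limma adjusted p 0.922) that was 0.25 without d/d replicate 3. Car9, the membrane carbonic anhydrase often used as a hypoxia marker, was near the detection filter, at 0.777, 1.25 and 1.08 FPKM in controls and 1.30, 0.547 and 0.607 in d/d replicates 1, 2 and 3. It was thus above the controls in replicate 1, as Bnip3 and Ankrd37 were, and below them in replicates 2 and 3.

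Without d/d replicate 2, 0 members passed an adjusted p of 0.05 in limma, where 12 of all tested genes (0.0949%) did. At an unadjusted p under 0.05 there were then 8 members, 25.8% against 13.7% of all tested genes. Slc2a3 (log2 change -0.66), Pkm (-0.31), Eno1 (-0.29), Ldha (-0.26) and Hk1 (-0.24) were lower, and Ankrd37 (0.63), Pdk1 (0.62) and Bnip3 (0.41) higher. That is 16.1% of the members lower and 9.68% higher, against 6.57% and 7.09% of all tested genes. The median log2 change over members was -0.10, with 20 lower and 11 higher, beside 0.02 over all tested genes. Groups did not overlap for 12 members, 38.7% against 31.8% of all tested genes. The payoff genes had a median change of -0.19 in this comparison, with 5 of 6 below 0, against 0.10 with all libraries. The remaining 2 d/d libraries give little measure of spread, and the choice to leave out replicate 2 followed from earlier results of these data.

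**Figure D5:**
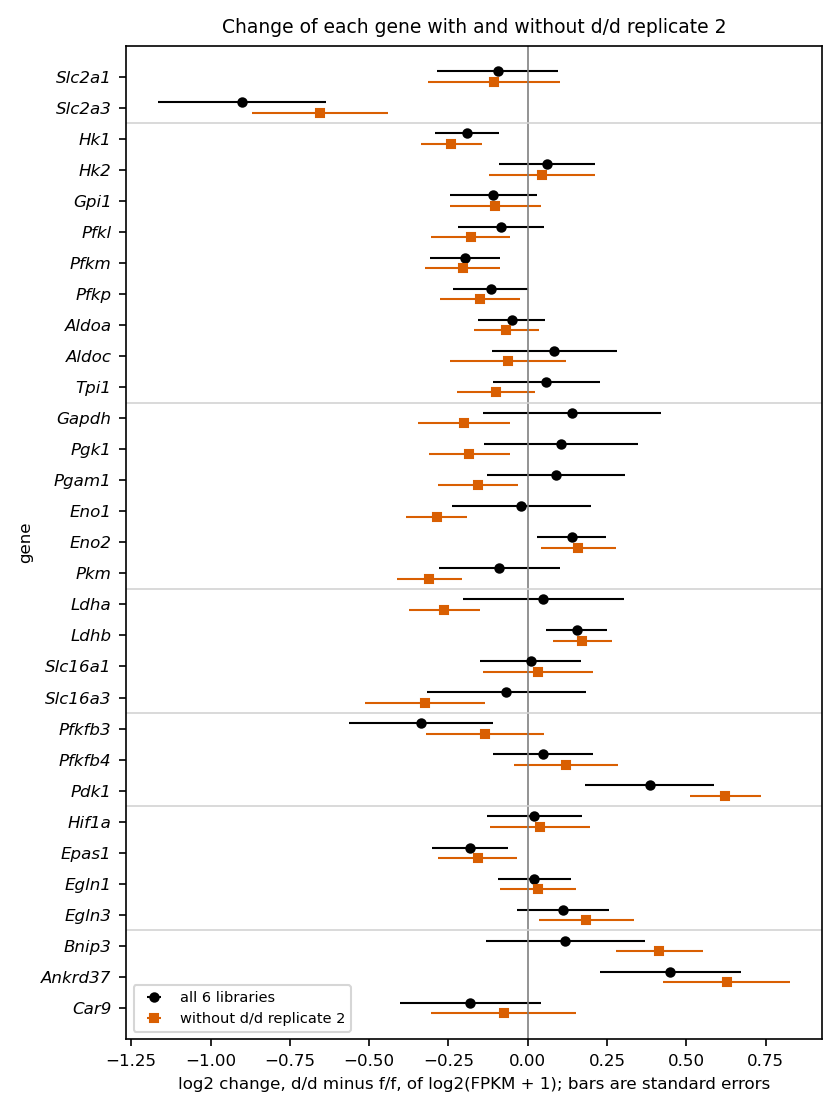
Points are log2 changes, d/d minus f/f, of log2(FPKM + 1) for the 31 members by role, with bars for 1 standard error, from all 6 libraries (black) and without d/d replicate 2 (orange). Ldha moves from 0.05 to -0.26 and Pgk1 from 0.10 to -0.18, whereas Ldhb (0.15 and 0.17) and Hk1 (-0.19 and -0.24) move little.

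A wider list of 74 genes of glycolysis, pyruvate use and the hypoxia response, chosen by function, had 73 in the tables and 62 tested. None passed an adjusted p of 0.05 in limma, and 4 (6.45%) had an unadjusted p under 0.05, against 4.98% of all tested genes. The median log2 difference of the 62 was 0.06, beside 0.03 over all tested genes, and -0.023 without d/d replicate 2. The groups did not overlap for 5 (8.06%, against 10.7% of all tested genes): these 4, which were hypoxia genes, and Pgm1. The gene listed under that symbol is ENSMUSG00000029171 (chr5:64092950-64128351, plus strand), of the phosphoglucomutase family. It was at 15.9, 17.3 and 16.6 FPKM in controls and 13.5, 15.2 and 15.1 in d/d uteri. Its relative listed as Pgm2 (ENSMUSG00000025791) overlapped between groups. Vegfa, the main growth factor for blood vessels, was at 59.9, 69.0 and 59.9 FPKM in controls and at 53.0, 47.6 and 44.8 in d/d uteri (log2 change -0.37, SE 0.12; limma adjusted p 0.922). Each d/d library was below each control. Stc2, a secreted glycoprotein of the stanniocalcin family, was at 10.6, 9.62 and 8.09 FPKM in controls and at 6.99, 5.44 and 7.56 in d/d uteri (log2 change -0.45, SE 0.15).

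Nampt, which makes the precursor of the glycolytic cofactor NAD, was at 13.8, 16.1 and 17.6 FPKM in controls and at 28.8, 20.7 and 20.2 in d/d uteri. Its log2 difference was 0.52 (SE 0.16; limma adjusted p 0.922), and with array quality weights it was 0.79 with a limma adjusted p of 0.0386. Nampt was the 1 gene of the wider list called with these weights (1.61%, against 2.5% of all tested genes), and its adjusted p ranged from 0.0386 to 1 over the alternatives. Arnt2, a partner of the alpha subunits, was at 8.05, 9.51 and 9.46 FPKM in controls and at 10.9, 12.4 and 13.7 in d/d uteri (log2 change 0.41, SE 0.13). Both were higher in every d/d library than in any control.

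Of the 62 tested genes of the wider list, 5 (8.06%, against 6.77% of all tested genes) had d/d replicates 1 and 3 below and replicate 2 above every control. They were the prolyl hydroxylases of collagen P4ha1 and P4ha2, the pentose phosphate enzymes Tkt and Taldo1, and the transporter Slc16a7. A further 6 (9.68%, against 6.75%) had the reverse order, so both pooled shares were near those of all tested genes. The 2 parts of the list differed. The first order was held by 3 of 27 glycolysis and pyruvate genes (11.1%) and 2 of 35 hypoxia genes (5.71%). The reverse order was held by 1 (3.7%) and 5 (14.3%) of them. The 6 with the reverse order were Bnip3l, the relative of Bnip3, the histone demethylase gene Kdm3a, Hif3a, Angptl4, Ppp1r3c and Pdp1. P4ha1, for example, was at 24.0, 30.7 and 24.4 FPKM in controls and at 14.1, 35.7 and 17.9 in d/d replicates 1, 2 and 3, and Kdm3a was at 19.7, 19.5 and 21.6 and at 27.0, 19.3 and 27.4. These genes were named after their values were seen.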

How the data were processed

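For each of the 6 libraries the authors deposited FPKM values of 20637 genes; the submitters' processing notes name HISAT2 2.2.1, Cufflinks 2.2.1 and build mm10, and the labels' protocols name the TruSeq RNA kit. The unit was inferred from those tools and the values. Annotation, strandedness and read totals are not given in the sources used here, so depth is relative, from the smallest values, and no counting interval is given.

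Values were analysed as log2(FPKM + 1), which understates changes of low genes, in genes with at least 1 FPKM in at least 3 libraries (12640). Group differences were tested in R 4.3.3 by limma 3.58.1 (eBayes with trend; group as the only term), two-sided, with Benjamini-Hochberg adjustment over all tested genes. On simulated data for this comparison with 12640 genes, 83.7% of genes changed by 1.5 log2 units and 39.5% of those changed by 0.75 were called, with 4.89% of calls false. Genes were drawn independently of each other and 200 were changed, so no simulated library shifted many genes together, as d/d replicate 2 did. These shares may therefore not hold for the real libraries, where Nat10 (log2 change -1.11) was not called. Coordinates are from GENCODE M21, which held 99.62% of the identifiers, and promoters from RefSeq (GRCm38). Python 3.11.15 was used for summaries.

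The members, lists and alternatives were chosen with earlier results of these data known. Values in every library are given for members whose groups do not overlap, those with the smallest p or largest spread, and Gapdh. The low-value filter, pseudocount, scaling, trend, robust step, library weights, replicate block and each library were varied.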

Additional observations from a re-analysis of the deposited data

How the results depend on the processing

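The alternatives were chosen with earlier results of these data known. Count-based alternatives were not run, because the files hold no counts, and Car9 had no value under the filter of at least 1 FPKM in every library. Deviations of same-numbered libraries from their group means correlated at -0.34, -0.03 and 0.10, which gave no sign of pairing by replicate number. Within a group these deviations sum to 0 for each gene, so the correlations cannot show whether litters or batches were shared. With the replicate block 0 genes were called and 1 member had an unadjusted p under 0.05, as without it.

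With array quality weights 316 genes and 2 members (Slc2a3 and Pdk1) were called, 11 members and 13 genes of the wider list had an unadjusted p under 0.05 (29.5% of all tested genes), the members' median log2 change was -0.079, and Nat10 was called (-1.09; limma adjusted p 0.0386). After quantile normalization or upper-quartile scaling 2 members had an unadjusted p under 0.05, Hk1 being added, and quantile normalization gave a median of -0.028. When each library was left out in turn, between 0 and 12 genes were called, the most without d/d replicate 2. The members at an unadjusted p under 0.05 numbered 1 to 8 (2.78% to 13.7% of all tested genes), the members without overlap 5 to 12 (15.0% to 31.8% of all tested genes), and the wider-list genes 1 to 13, in each case with the highest count without d/d replicate 2. The members' median lay between -0.10 and 0.049, and the change of Nat10 between -1.28 and -0.95.

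Of the 31 members and Vegfa, Stc2, Nampt and Arnt2, 18 kept their direction in every setting, Slc2a3, Hk1, Ldhb, Eno2, Pdk1 and Ankrd37 among them. Except for Car9, the log2 change of the others crossed 0 when single libraries were left out: Slc2a1 (-0.28 to 0.099), Pfkl (-0.18 to 0.049), Aldoc (-0.062 to 0.22), Tpi1 (-0.10 to 0.16), Gapdh (-0.20 to 0.41), Pgk1 (-0.18 to 0.27), Pgam1 (-0.16 to 0.23), Eno1 (-0.29 to 0.12), Pkm (-0.31 to 0.047), Ldha (-0.26 to 0.21), Slc16a1 (-0.089 to 0.15), Slc16a3 (-0.33 to 0.18), Pfkfb4 (-0.066 to 0.12), Hif1a (-0.13 to 0.13), Egln1 (-0.037 to 0.091) and Bnip3 (-0.064 to 0.41). Array quality weights turned the direction of Aldoc (-0.040), Tpi1 (-0.046), Gapdh (-0.018), Pgk1 (-0.11), Pgam1 (-0.10), Ldha (-0.23), Hif1a (-0.032), Egln1 (-0.033) and Car9 (0.14). Quantile normalization turned Tpi1 (-0.001), Ldha (-0.029), Slc16a1 (-0.011), Hif1a (-0.028) and Egln1 (-0.015), median centring turned Slc16a1 (-0.019), Hif1a (-0.007) and Egln1 (-0.007), and upper-quartile scaling turned Slc16a1 (-0.028), Hif1a (-0.019) and Egln1 (-0.019). The cause was not tested. Absolute depth is unknown, which limits what can be said of low genes such as Car9, Hk2, Slc16a3 and Aldoc.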
